A study of Mus musculus with 6 samples.

Results

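The genes described here are the 6 Ifitm and Ifi27 family genes Ifitm1, Ifitm2, Ifitm3, Ifitm6, Ifi27 and Ifi27l2a, which encode small interferon-induced membrane proteins. They were chosen by gene symbol, and all 6 were found among the 26012 genes of the expression table and among the 21126 that were tested, whose mean over the hearts was 1 normalized count or more. RNA was sequenced from ventricular tissue of 6 infarcted hearts of male C57BL/6 mice, 8 weeks old. Every mouse underwent ligation of a coronary artery, the left anterior descending (LAD), to cause myocardial infarction (MI) and 10 μg of mimic was injected into the heart wall, and the tissue was collected 4 days after MI. The control group was 3 hearts injected with control mimic, and the treated group was 3 hearts injected with miR-19a/19b mimics, so that surgery and injection were common to both groups. A miRNA mimic is a synthetic RNA that acts as a mature miRNA. Polyadenylated RNA does not report the mimic itself, so the injected miRNA was not measured in these libraries. The tissue is a mixture of cells, in which fewer cells of a type and less RNA per cell cannot be told apart. No uninfarcted heart was analysed here, so the values compare treatments after MI and do not show what MI changed.

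Interferons are secreted proteins that bind receptors on the cell surface. The receptors activate the kinases Jak1, Jak2 and Tyk2, which activate transcription factors, among them Stat2 with its partner Irf9, that switch on interferon-stimulated genes in the nucleus. The Ifitm proteins are products of such genes. They sit in plasma and endosomal membranes and hinder the fusion of enveloped viruses with the cell. Ifitm3 acts mainly in late endosomes, Ifitm1 mainly at the cell surface, and Ifitm2 and Ifitm3 are closely related. Ifitm6 is a less studied gene of the family. Ifi27 and Ifi27l2a, also called ISG12 genes, encode very small hydrophobic proteins of mitochondrial and nuclear membranes linked to cell death and to the control of nuclear receptors. After an infarct, nucleic acids from dying cells can set off interferon signaling in the immune cells that enter the heart.

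The 2 injected miRNAs are shown first because the comparison rests on them. Their mature sequences, from RefSeq on the GRCm38.p6 build, are given with the seed, bases 2 to 8, in capitals.
miR-19a-3p: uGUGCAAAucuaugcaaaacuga
miR-19b-3p: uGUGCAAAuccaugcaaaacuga
Both are 23 bases long and have the same seed. They differ at 1 position, U11C, written as the base of miR-19a, the position counted from the 5′ end and the base of miR-19b. miR-19a-3p lies at chr14:115044048-115044070 on the plus strand, and miR-19b-3p at chr14:115044358-115044380 on the plus strand, with a second copy at chrX:52741991-52742013 on the minus strand.

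The perfect partner of the seed in a messenger RNA is the 7-mer TTTGCAC. The search also took the 8-mer TTTGCACA, which holds it, and the 7-mer TTGCACA, which does not cover base 8 of the miRNA. None of these letters was found in the longest annotated 3′ UTR (GENCODE M21) of the 6 genes, 0 of 6. Across 15867 tested genes with a 3′ UTR, 19.3% held at least 1 match and 5.81% held the 8-mer. Genes holding a match had a median log2 fold change of -0.03, and those without one had 0.01. Outside the 3′ UTR, the transcript of Ifitm2 held the 8-mer in its coding sequence, at bases 475 to 482 of 655, on the minus strand of chr7:140955010-140955017. The 30 bases around it, chr7:140954999-140955028 of GRCm38, are shown with the match in capitals.
Ifitm2 seed match: tctttcagtctTTTGCACAaagaacacccc
Ifitm2 was not lower in the treated hearts (its values are given below with its family). A match of letters is a description and does not show that the miRNA binds there.

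The promoters were searched because these genes are known as interferon targets. The RefSeq promoter table (250 bases before to 50 after a start, GRCm38.p6) held 4 of the 6 genes, Ifitm1, Ifitm2, Ifitm3 and Ifitm6. The letters searched on both strands were TTTC, any 2 bases and TTTC, the core of the interferon-stimulated response element (ISRE) bound by the complex that holds Stat2 and Irf9, and TTCNNNGAA, the gamma-activated site (GAS) known from responses to interferon gamma. In the windows below, each printed on the strand of its gene, the matches are in capitals.
Ifitm3: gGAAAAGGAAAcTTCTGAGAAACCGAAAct
Ifitm2: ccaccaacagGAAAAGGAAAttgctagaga
Ifitm6: ccatatgaacTTCCTTGAAacaagagcttc
The Ifitm3 window, chr7:141010714-141010743, covers bases 1 to 30 after the RefSeq start and holds 2 ISRE cores and 1 GAS, the GAS sharing its last 3 bases with the second ISRE core. This window lies inside the gene as the deposited table draws it. The Ifitm2 window, chr7:140955988-140956017, lies 56 to 27 bases before the start and holds 1 ISRE core with the same 10 letters, GAAAAGGAAA, as the first core of Ifitm3. The Ifitm6 window, chr7:141016883-141016912, runs from 20 bases before the start to base 9 after it and holds 1 GAS. Neither motif was in the 300 bases searched for Ifitm1, chr7:140967826-140968125. That stretch lies inside the gene as the deposited table draws it, and the bases before the deposited start, 140967221, were not searched. Of all 32851 promoters in the table, 3.44% held an ISRE core, 0.225% held 2 or more, 8.3% held a GAS and 0.454% held both motifs. Among the other interferon targets listed further on, 6 of the 11 genes with a promoter in the table held an ISRE core (54.5%) and 3 of 11 a GAS (27.3%). These are shares of genes with a match in any of their promoters, while the shares over the whole table are of single promoters. The percentages are therefore not on the same unit.

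The 6 genes form 2 groups of neighbours in the genome. The Ifitm genes lie within 62.1 kb of chromosome 7, with Ifitm2 at chr7:140954839-140955961 (minus strand), Ifitm1 at chr7:140967221-140969825 (plus), Ifitm3 at chr7:141009586-141010770 (minus) and Ifitm6 at chr7:141015812-141016892 (minus). Ifi27 at chr12:103434211-103440239 (plus) and Ifi27l2a at chr12:103442167-103443680 (minus) lie within 9.47 kb of chromosome 12. These coordinates are those of the deposited table. The transcripts resemble each other, which bears on how reads could be assigned. Ifitm2 and Ifitm3 shared 82.9% identity over 363 bases, Ifitm1 and Ifitm3 83.8% over 266 bases, and Ifi27 and Ifi27l2a 69.8% over 248 bases. Ifitm2 was 97.0% identical over 432 bases to the gene model Gm11951 and 95.3% identical over 429 bases to Gm8865, whose mean normalized counts were 0.94 and 0.84, and Ifitm1 was 97.5% identical over 319 bases to Gm7676. In GENCODE M21 the model Gm45717 also covers 40.9% of the exon bases of Ifitm2 on the same strand. Neither Gm45717 nor Gm7676 had a row among the deposited genes, so whether reads were counted for them is not known. How far the overlap affected the Ifitm2 count is therefore uncertain. Ifi27l2a was 87.2% identical over 273 bases to Ifi27l2b, which had a mean normalized count of 48.9.

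The libraries held from 19398196 to 23645308 reads on genes, of which the 6 genes made up 0.0597% to 0.0917%. The cardiomyocyte markers, defining for this tissue, were present in all hearts. The hearts in the treated group differed in their makeup. miR-19a/19b mimic replicate 3 had a summed level of 7 cardiomyocyte markers of 270300 normalized counts, against 795500 and 708300 in replicates 1 and 2 and 440500 to 574100 in the control hearts. Skeletal muscle markers summed to 2282 in mimic replicate 1, while no other heart exceeded 69.15. Without mimic replicate 3, limma called 164 genes lower and 383 higher over the whole table, where it called 0 with all 6 hearts, so values without that heart are given beside the results it changes.

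The genes kept nearly the same order of abundance in every heart. Levels are compared here as normalized count per kb of gene model. Ifitm3, which blocks virus entry from endosomes, was the most abundant at 12910 ± 864 (SD, n = 3) in control hearts and 10650 ± 2009 in treated hearts, above 99.6% of tested genes. Ifitm2 was next at 8106 ± 1622 and 9105 ± 1265, above 99.5% of tested genes. Both genes were therefore among the most abundant transcripts of these hearts. Ifi27l2a stood at 4536 ± 582 and 2929 ± 557 per kb, and Ifi27 at 1153 ± 69.1 and 1259 ± 97.0. Ifitm1, the cell surface form, and Ifitm6 were far lower, at 179.6 ± 40.03 and 169.7 ± 49.1 for Ifitm1 and 143.9 ± 42.2 and 121.6 ± 54.3 for Ifitm6. These last genes still exceeded 72.3% and 67.0% of tested genes. Ifitm3 was above Ifitm2 in 6 of 6 hearts, by 1.06 to 1.94 times, and Ifitm2 was above Ifi27l2a in 6 of 6. Ifi27l2a was above Ifi27 in 6 of 6 hearts and Ifi27 above Ifitm1 in 6 of 6, by 5.74 to 9.91 times. Ifitm1 and Ifitm6 did not differ beyond their spread, with a ratio between 0.831 and 2.01 and Ifitm1 higher in 5 of 6 hearts. That ratio depends on the length of Ifitm6, 541 bases in the deposited model and 905 in GENCODE M21. A longer Ifitm6 model would raise the ratio. Before division by length, Ifitm1 had 1.68 to 4.06 times the count of Ifitm6.

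**Figure D1:**
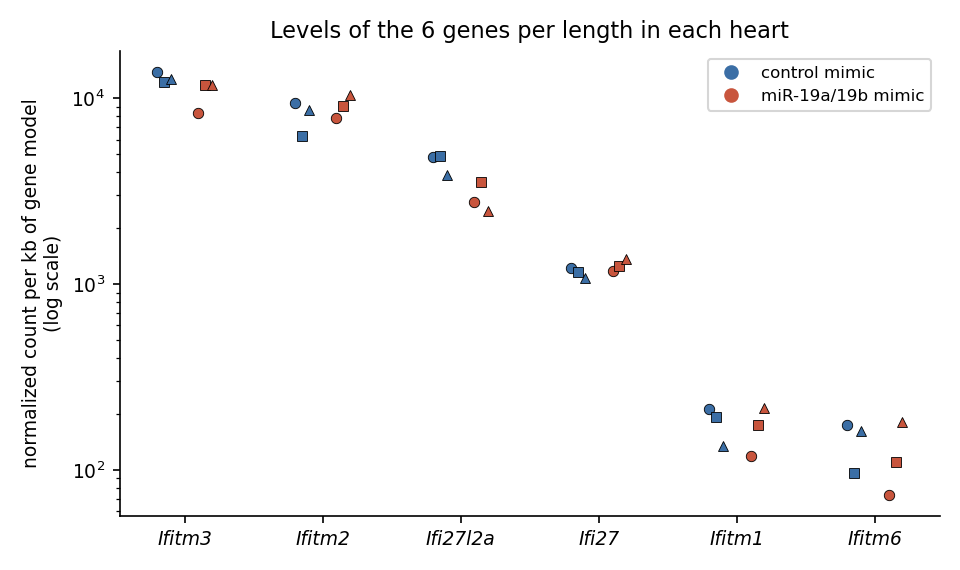
Normalized count per kb of gene model (log scale) for the 6 genes, 1 point per heart, with control mimic hearts in blue and miR-19a/19b mimic hearts in red and the replicate number given by the shape (circle 1, square 2, triangle 3). Ifitm3 and Ifitm2 lie highest, at group means between 8106 and 12910, and Ifitm1 and Ifitm6 overlap near the bottom, at group means between 121.6 and 179.6.

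The comparison between the groups asks whether miR-19a/19b mimics altered these transcripts in the infarcted heart. None of the 6 genes passed limma's test at an adjusted p-value of 0.05, where the background over all tested genes was 0.0%, 0 of 21126. At an unadjusted p under 0.05, 1 of the 6 genes (Ifi27l2a) was lower and 0 were higher, against 848 tested genes in either direction, 4.01% (2.63% lower and 1.39% higher). Without mimic replicate 3, 2 of the 6 genes (Ifi27l2a and Ifitm3) were lower at this threshold, and of all tested genes 1289 were lower and 1778 higher, where with all hearts 555 were lower and 293 higher. DESeq2 and edgeR's quasi-likelihood test also called 0 of the 6 after adjustment, and 28 and 0 genes lower over the whole table. The 3 hearts of each group did not overlap for 2 of 6 genes (33.3%), Ifitm3 and Ifi27l2a, both lower in the treated hearts, against 9.2% of all tested genes in either direction (5.3% lower and 3.9% higher). By sign, 4 genes were lower and 2 higher, under the deposited scaling and under each of the other 3 scalings tried. The median log2 fold change of the 6 was -0.19, where that of all tested genes was 0.004. With 3 hearts against 3, the smallest p that an exact permutation test can give is 0.1.

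Ifi27l2a showed the largest difference. Its normalized counts were 2250, 2261 and 1789 in the control hearts, replicates 1 to 3, and 1285, 1642 and 1142 in the treated hearts, in the same order. The highest treated heart, replicate 2, lay below the lowest control heart, replicate 3, so the groups did not overlap, and they did not under any of the other scalings tried. The mean was 2100 ± 270 (SD, n = 3) in control hearts and 1356 ± 258 in treated hearts, a log2 fold change of -0.64 (SE 0.15, 95% interval -0.99 to -0.29), or -35.8% (-49.7% to -18.1%). By limma the unadjusted p was 0.00266, the gene's rank by p was 62 of 21126, and the adjusted p was 0.877, so the difference did not hold after correction over all genes. The exact permutation p was 0.1 (two-sided). Leaving out each heart in turn gave log2 fold changes between -0.79 and -0.52, with limma's unadjusted p from 0.000755 to 0.0154. Without mimic replicate 3 the value was -0.52 with an adjusted p of 0.0639 by limma. Over the other tools and filters the adjusted p was lowest with DESeq2, 0.14.

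Its neighbour Ifi27 had a narrow range. The normalized counts were 1787, 1704 and 1585 in the control hearts and 1716, 1827 and 1999 in the treated hearts. The groups overlapped, and the highest and the lowest of the 6 hearts differed only 1.26 times, the smallest range among the 6 genes. The means were 1692 ± 101 and 1847 ± 142 (SD, n = 3), a log2 fold change of 0.13 (SE 0.10, 95% interval -0.11 to 0.36) with a limma unadjusted p of 0.255 and an adjusted p of 0.9996. It was 0.07 without mimic replicate 3. A decrease of the size seen for Ifi27l2a lies outside the interval from all hearts.

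Among the Ifitm genes, Ifitm3 was the one whose groups did not overlap. Normalized counts of Ifitm3 were 9407, 8274 and 8584 in control replicates 1 to 3 and 5646, 7983 and 8029 in mimic replicates 1 to 3. Mimic replicate 1 was far below the other hearts, while the gap between mimic replicate 3 and control replicate 2 was narrow. The means were 8755 ± 586 and 7219 ± 1362 (SD, n = 3), with a log2 fold change of -0.29 (SE 0.16, 95% interval -0.66 to 0.07) and a limma unadjusted p of 0.0993 (adjusted p 0.9996, exact permutation p 0.1). Without mimic replicate 1 the value was -0.13 (unadjusted p 0.381 by limma), and without mimic replicate 3 it was -0.38 (unadjusted p 0.0195, adjusted p 0.218 by limma). Scaled by each library's total of reads on genes, the groups overlapped, the highest treated heart at 8689 and the lowest control heart at 8435.

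Ifitm2, a close relative of Ifitm3, lay the other way by sign. Its normalized counts were 5900, 3944 and 5405 in the control hearts and 4937, 5667 and 6522 in the treated hearts. The lowest value was that of control replicate 2 and the groups overlapped. The means were 5083 ± 1017 and 5709 ± 793 (SD, n = 3), a log2 fold change of 0.18 (SE 0.17, 95% interval -0.21 to 0.57) with a limma unadjusted p of 0.328. Without control replicate 2 the difference was 0.01, and without mimic replicate 3 it was 0.08.

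Ifitm1 and Ifitm6 rested on fewer reads and varied more. The normalized counts of Ifitm1 were 232.1, 209.8 and 147.6 in the control hearts and 129.1, 191.8 and 236.0 in the treated hearts, so that the lowest and the highest heart were both treated. Its log2 fold change was -0.10 (SE 0.25, 95% interval -0.66 to 0.46; limma unadjusted p 0.697), and it turned to 0.03 without control replicate 1 and to 0.14 without mimic replicate 1. Without mimic replicate 3 it was -0.29 (unadjusted p 0.203 by limma). Ifitm6 gave 93.95, 51.72 and 87.82 in the control hearts and 39.81, 59.8 and 97.68 in the treated hearts, again with the lowest and the highest value in the treated group. Its highest heart was 2.45 times its lowest, the widest range of the 6 genes. The log2 fold change was -0.29 (SE 0.35, 95% interval -1.07 to 0.50; limma unadjusted p 0.430) and 0.02 without mimic replicate 1. Leaving out mimic replicate 3 gave -0.62 (unadjusted p 0.0572, adjusted p 0.37 by limma). These intervals are wide, so neither a change of moderate size nor its absence could be shown for either gene at this depth and number of hearts.

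**Figure D2:**
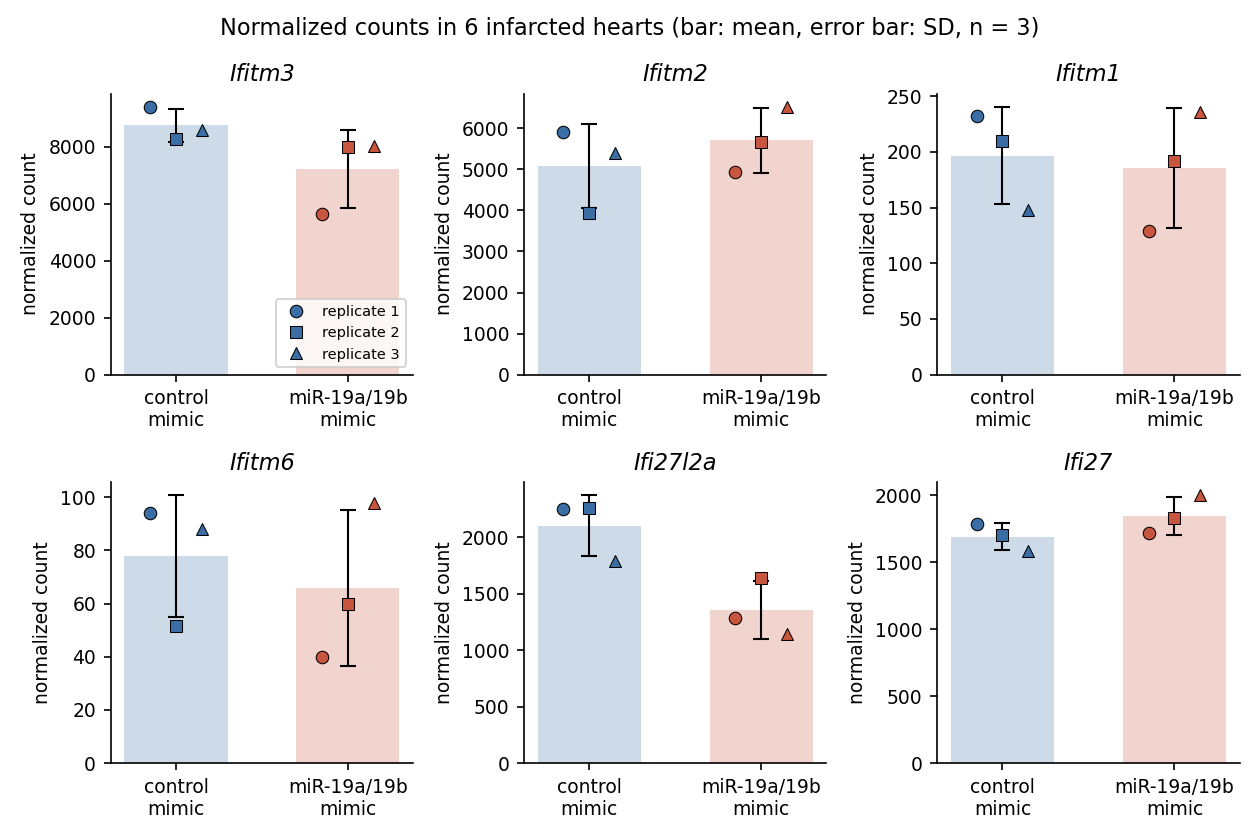
Normalized counts of the 6 genes in the 3 control mimic hearts (blue) and 3 miR-19a/19b mimic hearts (red), with the bar at the group mean, the error bar at ± SD (n = 3) and the shape giving the replicate number. The treated hearts lie below all control hearts for Ifitm3 (5646 to 8029 against 8274 to 9407) and Ifi27l2a (1142 to 1642 against 1789 to 2261) and overlap with them for the other genes.

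A ratio of a pair of genes within a heart does not depend on how the library was scaled. The ratio was taken for the 7 pairs of genes of the same family, an analysis chosen after the values were seen. The ratio of Ifi27 to Ifi27l2a was 0.794, 0.754 and 0.886 in the control hearts and 1.34, 1.11 and 1.75 in the treated hearts. These are ratios of counts not divided by gene length, so a value of 1 has no meaning of its own. Per kb, Ifi27l2a was above Ifi27 in 6 of 6 hearts, and what differed between the groups was the size of the ratio. The difference was 0.76 on the log2 scale (SE 0.202), and 0.59 without mimic replicate 3. The ratio of Ifitm2 to Ifitm3 was 0.627, 0.477 and 0.630 in the control hearts and 0.874, 0.710 and 0.812 in the treated hearts, a difference of 0.47 (SE 0.159) that stayed between 0.34 and 0.56 when each heart was left out. For both pairs the groups did not overlap, with an exact permutation p of 0.1, the smallest possible, and 0.35 after Benjamini-Hochberg adjustment over the 7 pairs. No other test was run on these ratios. For the other 5 pairs the groups overlapped, with differences between -0.28 and 0.47.

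**Figure D3:**
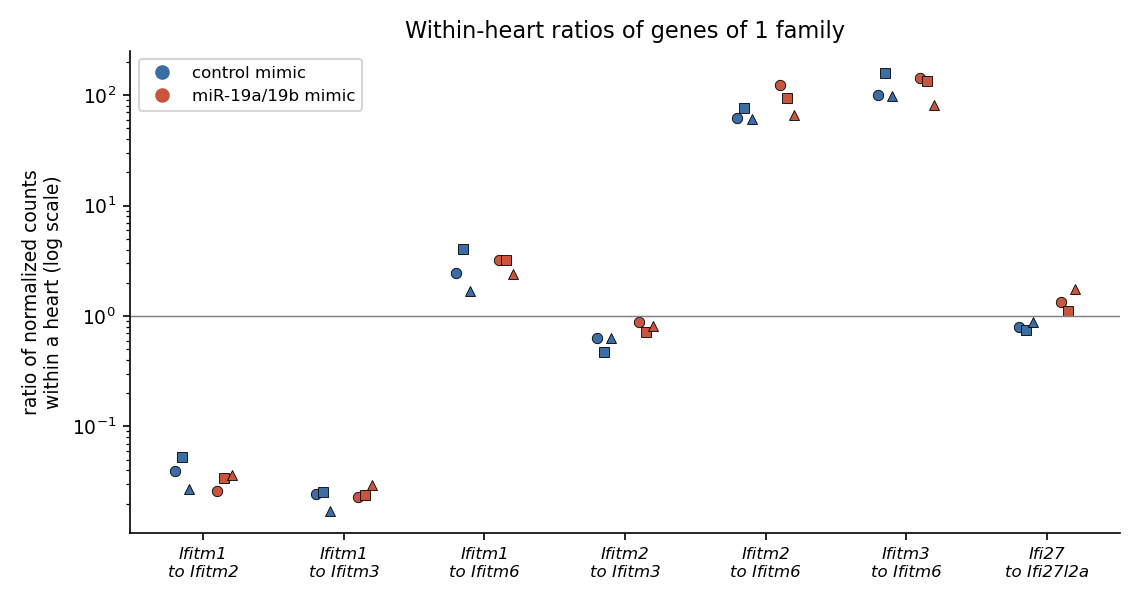
Ratio of the normalized counts of 2 genes within each heart (log scale) for 7 pairs, with control mimic hearts in blue, miR-19a/19b mimic hearts in red and the replicate number given by the shape; the line marks equal counts. The ratio of Ifi27 to Ifi27l2a is 0.754 to 0.886 in the control hearts and 1.11 to 1.75 in the treated hearts, on counts not divided by gene length.

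Further genes of the families were Ifitm5, known from bone, Ifitm10, and Ifi27l2b. Ifitm10 had normalized counts of 107.2, 127.8 and 109.3 in the control hearts and 82.85, 79.38 and 75.21 in the treated hearts. All treated hearts lay below all control hearts, with a log2 fold change of -0.53 (SE 0.16), a limma unadjusted p of 0.0088 and an adjusted p of 0.9996. Without mimic replicate 3 the log2 fold change was -0.49 (unadjusted p 0.017, adjusted p 0.202 by limma). Ifitm10 lies at chr7:142325837-142373753, outside the cluster of the other Ifitm genes. Ifi27l2b had means of 53.15 and 44.64 and Ifitm5 means of 17.44 and 21.57 normalized counts, and for both the groups overlapped.

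The genes upstream of the family in the interferon pathway were taken from lists by role. Of 9 interferon ligands, 2 had a row, Ifnb1 and Ifng, and both were close to 0. Ifnb1 had 5.86 normalized counts in control replicate 2 and 0 in the other hearts, and Ifng had between 0.934 and 2.06. At this depth no difference in the ligands was detectable. Of 7 receptors and kinases, 0 passed limma's test at an unadjusted p under 0.05 and 6 were lower by sign, with a median log2 fold change of -0.10. For 3 of the 7, Ifngr1 among them, all treated hearts lay below all control hearts, against 5.3% of all tested genes. The summed level of the 7 was 15300 to 16450 normalized counts in the control hearts and 14420 to 15250 in the treated hearts, a narrow gap without overlap. Ifngr1, a receptor chain for interferon gamma, had means of 3402 and 2942 normalized counts (log2 fold change -0.21, limma unadjusted p 0.0700), and Ifnar2, a receptor chain for type I interferons, 1218 and 1086 (-0.16, unadjusted p 0.207).

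Transcription factors of the pathway were lower in the treated hearts in 5 of 6 cases by sign, against 49.2% of all tested genes. At a limma unadjusted p under 0.05, 3 of 6 (Stat2, Irf7 and Irf9) were lower, against 2.63% of all tested genes, and 0 were after adjustment. This list too was chosen with earlier results known, so the count is a description. Irf7, a factor that is itself induced by interferon, had normalized counts of 4886, 6030 and 4175 in the control hearts and 2764, 3626 and 2674 in the treated hearts. The groups did not overlap, and the log2 fold change was -0.73 (SE 0.17, limma unadjusted p 0.00189, adjusted p 0.806). Stat2 had means of 2027 and 1354 (log2 fold change -0.59, SE 0.14).

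The other interferon targets, 16 genes including Isg15, Mx1, Rsad2 and Bst2, were lower in the treated hearts in 16 of 16 cases, all at an unadjusted p under 0.05 with groups that did not overlap, and 0 passed adjustment. Their median log2 fold change was -0.74. Of all tested genes, 2.63% were lower at this unadjusted threshold, and 5.3% were lower with groups that did not overlap. These 16 targets were listed with earlier results of these data known, so their count is a description. Ifi44 had normalized counts of 647.7, 737.8 and 639.9 in the control hearts and 230.2, 402.1 and 281.8 in the treated hearts, a log2 fold change of -1.18 (SE 0.19, limma unadjusted p 0.000163, adjusted p 0.396). Ifit1, which binds foreign RNA, had means of 1192 and 582.9 (-1.05, SE 0.22). Without mimic replicate 3, 14 of the 16 passed limma's adjusted threshold, a setting in which 164 tested genes were lower and 383 higher. With DESeq2 on all hearts 3 of the 16 passed, and 28 tested genes were lower and 1 higher. Beside these genes, Ifi27l2a at -0.64 was of similar size, while Ifitm2 and Ifi27 were above 0 by sign. Whether the 6 genes as a group differed from the other targets was not tested.

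**Figure D4:**
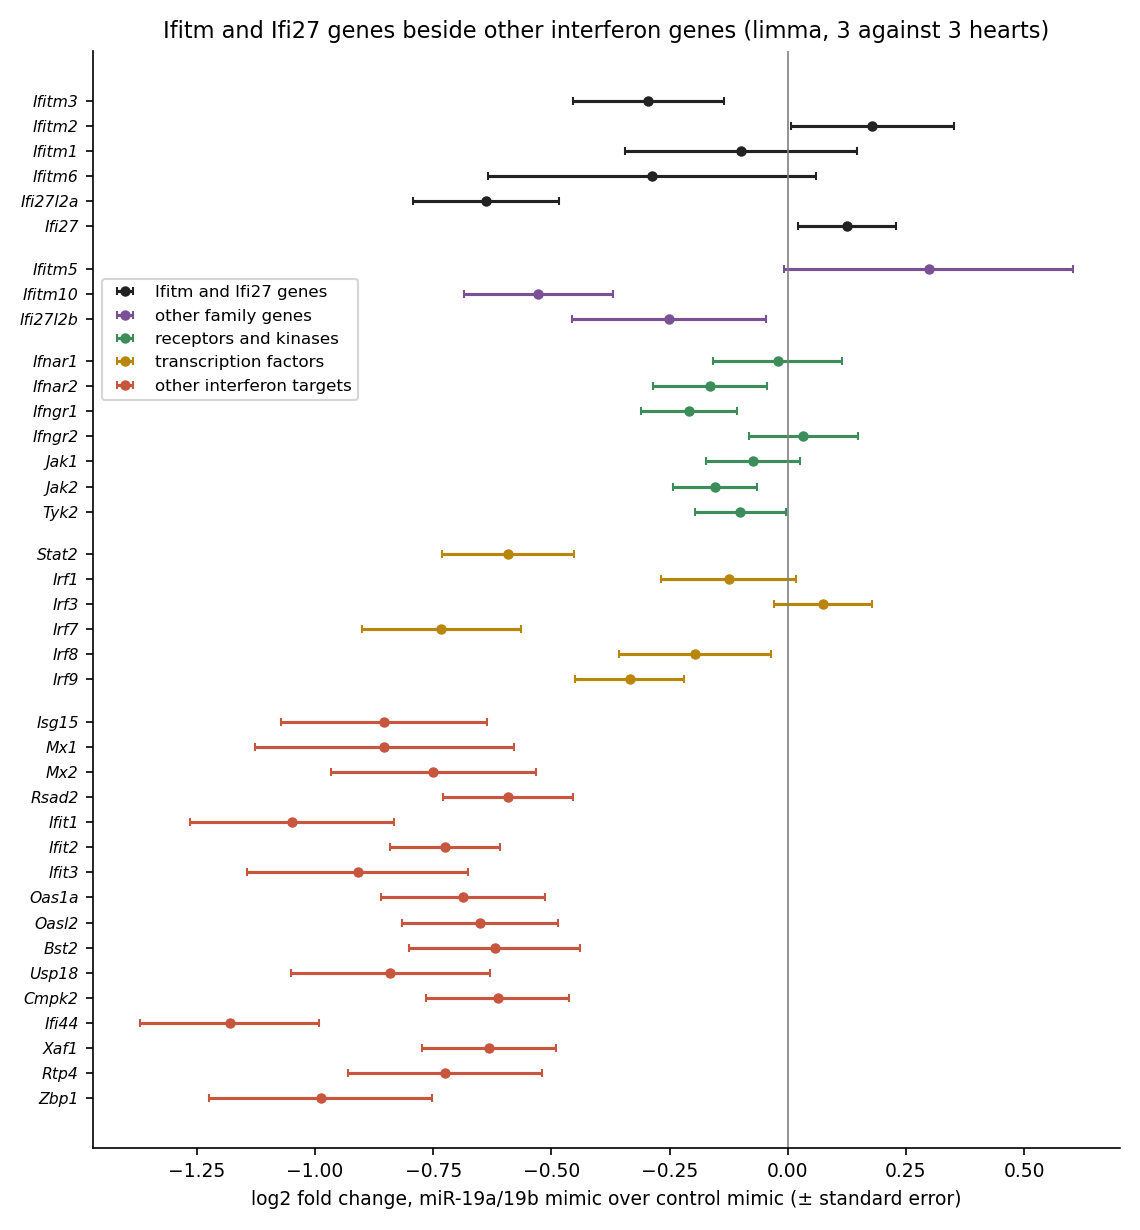
Log2 fold changes (miR-19a/19b mimic over control mimic, 3 against 3 hearts, bars ± standard error) of the 6 Ifitm and Ifi27 genes, other genes of the families, interferon receptors and kinases, transcription factors and other interferon targets. The 6 genes lie between -0.64 (Ifi27l2a) and 0.18 (Ifitm2), and the 16 other interferon targets all lie below 0 with a median of -0.74.

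Partners and modifying enzymes of these proteins were also listed. They include Zdhhc20, which attaches palmitate to Ifitm3, Nedd4, which attaches ubiquitin to it, Setd7 and Kdm1a, which add and remove methyl groups, and Nr4a1 and Skp2, reported partners of Ifi27 proteins. Of 10 such genes, 0 passed at an unadjusted p under 0.05, the groups overlapped for all 10, and the median log2 fold change was -0.07. Skp2 had means of 261.3 and 229.5 normalized counts (log2 fold change -0.22) and Nr4a1 means of 581.9 and 634.9 (0.12).

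The 6 genes are expressed by several cell types of the infarcted heart, so marker levels are given beside them. Monocyte markers were lower in the treated hearts in 5 of 5 cases by sign. At a limma unadjusted p under 0.05, 3 of 5 were lower, against 2.63% of all tested genes. Their summed level was 7786 to 9346 normalized counts in the control hearts and 5564 to 6873 in the treated hearts, with no overlap, and Ly6c2, which marks inflammatory monocytes, had a log2 fold change of -1.78 (limma unadjusted p 8.15e-05, adjusted p 0.396). T cell markers summed to 217.7 to 317.2 and 168.0 to 193.6, also with no overlap, and 2 of 7 passed unadjusted. These sums move in the same direction as Ifi27l2a and Ifitm3, and their part in those results was not tested.

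The summed neutrophil markers separated the treated hearts from each other. Their sum was 1149, 1889 and 3630 normalized counts in mimic replicates 1, 2 and 3 and 2081 to 2770 in the control hearts. Csf3r and Mmp9 had the largest values in it. Among the treated hearts, Retnlg (3.23, 23.7 and 16.4) and Ly6g (0, 3.09 and 1.73) were highest in mimic replicate 2. The other listed neutrophil markers rose from mimic replicate 1 to 3. Macrophage markers likewise summed to 63980, 74350 and 98150 in mimic replicates 1, 2 and 3, against 77880 to 91640 in the control hearts. In the same hearts Ifitm1, Ifitm2 and Ifitm6 had their lowest treated value in mimic replicate 1 and their highest in mimic replicate 3, as did Ifi27 and Ifitm3. In control replicates 1 to 3, Ifitm1 and Ifi27 fell in the order of the neutrophil sum (2770, 2478 and 2081). Ifitm2, Ifitm3 and Ifitm6 did not, and were lowest in control replicate 2, whose macrophage sum (91640) was the highest among control hearts. Over all 6 hearts, 4 of the 6 genes (Ifitm1, Ifitm2, Ifitm6 and Ifi27) were highest in mimic replicate 3. Ifi27l2a had its lowest value in that heart. The part of these cells in the spread was not tested. Endothelial markers, from cells that line vessels, summed to 22590 to 28900 in the control hearts and 24930 to 26250 in the treated hearts, with 0 of 6 passing. Counts at an unadjusted p under 0.05 were 1 of 9 for neutrophil, 0 of 8 for macrophage, 0 of 4 for B cell, 0 of 6 for fibroblast, 1 of 4 for smooth muscle, 0 of 7 for cardiomyocyte and 2 of 5 for erythrocyte markers, all lower where they passed, and 1 of 6, higher, for skeletal muscle markers. Of all tested genes, 2.63% were lower and 1.39% higher at this threshold. None of these marker lists had a marker that was at 0 in all hearts, and no marker passed after adjustment.

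**Figure D5:**
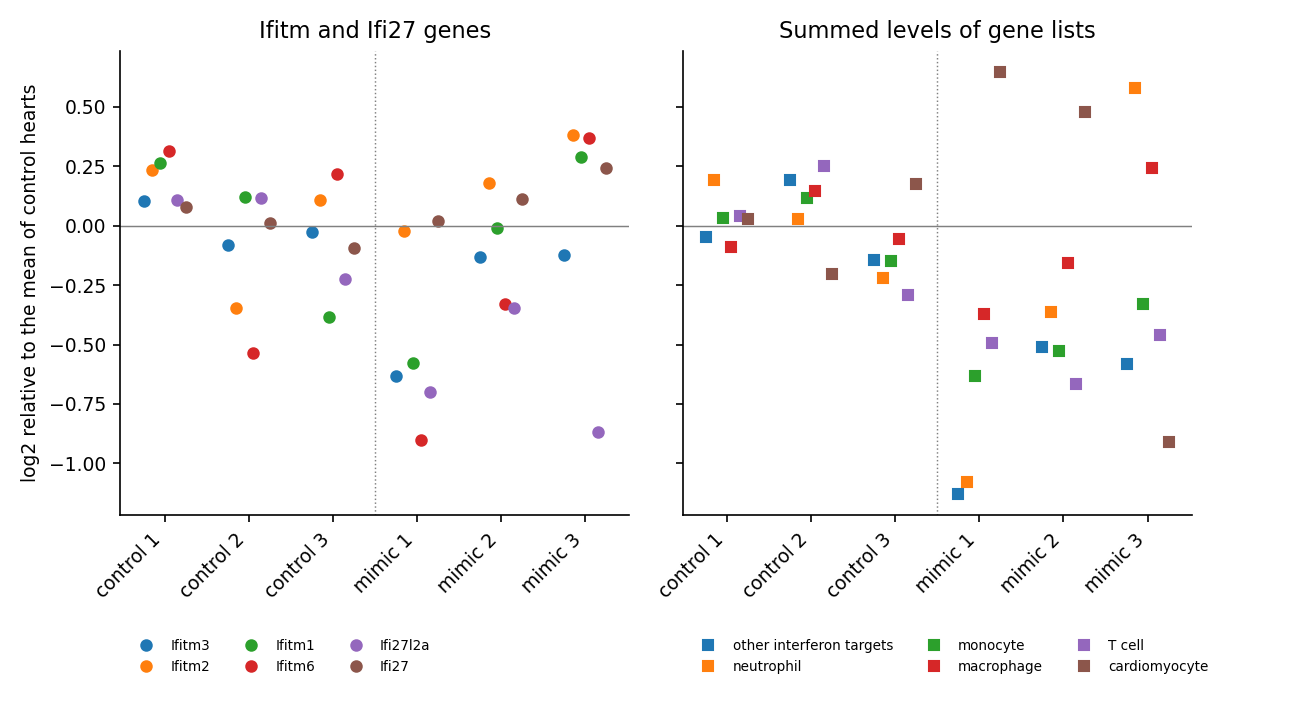
Log2 level relative to the mean of the control hearts in each of the 6 hearts, for the 6 Ifitm and Ifi27 genes (left) and for summed levels of interferon targets and cell type markers (right), 1 point per gene or list. In mimic replicate 1, Ifitm1, Ifitm3, Ifitm6 and Ifi27l2a are low, while Ifitm2 and Ifi27 lie near the control mean. That heart holds the lowest sums of neutrophil (1149), monocyte (5564) and macrophage (63980) markers and of interferon targets (9949). It also holds the highest cardiomyocyte sum (795500). Mimic replicate 3 holds the highest neutrophil sum (3630) beside the lowest cardiomyocyte sum (270300).

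Across the 6 hearts the genes did not vary as a unit. Pearson's r of log2(normalized count + 1) between pairs of them ran from -0.50 for Ifi27 and Ifi27l2a to 0.77 for Ifitm3 and Ifitm6, a description over 6 hearts that share 2 treatments and the same scaling. Among 11604 genes with a mean of at least 100, those whose levels were most like each gene over the 6 hearts differed from gene to gene. For Ifi27l2a they were Igtp (r = 0.992), an interferon-inducible GTPase, Gm4841 (0.982) and Arsk (0.979). Igtp had a log2 fold change of -0.81 and Gm4841 of -1.88. For Ifitm3 they were Gpx8 (0.990) and Lgals9 (0.981), which encodes galectin-9. For Ifitm1 they were Il2rg (0.988), a cytokine receptor chain of lymphocytes, Cxcl5 (0.987), a chemokine for neutrophils, and Magohb (0.985). For Ifitm2 they were Nde1 (0.998), Hnrnpf (0.997) and Wdr55 (0.992), for Ifitm6 Arl16 (0.992), Hnrnpd (0.983) and Tmem167 (0.980), and for Ifi27 Sf3b5 (0.999), Rpl14 (0.993) and Gtf2e2 (0.993). With so many genes and 6 hearts, high values of r arise for many genes, and nothing about shared control follows from them.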

How the data were processed

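RNA-seq libraries from 6 mouse hearts (3 control mimic, 3 miR-19a/19b mimic) were compared. Reads were 150 bp paired-end; alignment with STAR 2.5.1b and counting with HTSeq 0.6.0 are named in the submitters' processing notes, which also list DESeq2 1.10.1 and mm9. The signal deposited by the authors is the normalized count: reads on a gene over the library's size factor (0.905 to 1.16). Here whole reads were recovered from 100% of values (tolerance 0.01). The authors also deposited log2 fold changes and p-values of their own comparison, which were not used. Of the gene identifiers, 25884 were found in GENCODE M21 and 82.7% had identical start and end there, so GRCm38 coordinates are given. Whether counting used strand is not given in the sources used here.

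Groups were compared with limma 3.58.1 in R 4.3.3 (trended prior) on log2(normalized count + 1) for 21126 genes with a mean of at least 1, with p-values adjusted over all of them by Benjamini and Hochberg. A fold change on this scale understates that of low genes. The labels number the hearts within a group and do not state separate mice, while the paper describes 3 biological replicates per group. The p-values measure the spread between these samples. DESeq2 1.42.0, edgeR 4.0.16 (quasi-likelihood) and limma-voom on recovered reads, other filters and pseudocounts, a replicate block and leaving out each heart were alternatives, and other scalings and within-heart ratios were added after seeing the data. Same-numbered hearts did not deviate together (r between -0.289 and -0.02), so the numbers were not used as pairs. The test was checked on simulated counts. The 6 genes and all lists were chosen with earlier results of these data known. From each list of pathway genes and partners the 2 genes with the largest absolute log2 fold change (mean of at least 10) are named, and for likeness the 3 genes with the highest r, apart from items that are not reported here and were left out of the lists. Ly6c2 and Irf9 were named after their values were seen. Transcripts were aligned with BLAST 2.17.0.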

Additional observations from a re-analysis of the deposited data

How the results depend on the processing

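Limits are the 3 hearts per group, the mixed tissue and the small share of reads behind Ifitm1 and Ifitm6. Of the 6 genes, 0 passed adjustment under any alternative with a test, and Ifi27l2a passed unadjusted under each of them, with a log2 fold change between -0.79 and -0.52. The cause of the changes below was not tested. With DESeq2, 28 genes were lower and 1 higher after adjustment, where limma called 0, and 177 were higher unadjusted, where limma gave 293. With a mean of at least 10 as the filter, 172 were higher unadjusted. Leaving out each heart gave 0 to 164 genes lower and 0 to 383 higher after adjustment, and 369 to 1289 lower and 208 to 1778 higher unadjusted, the highest values without mimic replicate 3, and the lowest count of lower genes without control replicate 2. It gave 1 to 2 of the 6 genes unadjusted, the second being Ifitm3 without mimic replicate 3. Directions turned for Ifitm1 (range -0.29 to 0.14 when each heart was left out; 0.03 without control replicate 1, 0.14 without mimic replicate 1) and Ifitm6 (-0.62 to 0.02, the latter without mimic replicate 1), for the log2 ratio of Ifitm3 to Ifitm6 (-0.15 to 0.23; 0.22 without control replicate 2, 0.23 without mimic replicate 3) and for that of Ifitm1 to Ifitm6 (-0.11 to 0.51, the former without control replicate 3). Scaled by each library's total of reads on genes, 1 of the 6 genes had groups that did not overlap, in place of 2. Of the 16 other interferon targets, 3 passed adjustment with DESeq2 and 14 without mimic replicate 3. With the replicate number as a block, 0 genes passed adjustment, 434 were lower and 207 higher unadjusted, and Ifi27l2a had an unadjusted p of 0.00162, so that no call among the 6 genes changed.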
